A study of Mus musculus with 5 samples.

Results

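Fast excitatory transmission in the spinal cord runs on glutamate, and the genes described here encode its receptors and the transporters that load it into synaptic vesicles. They are 31 genes, taken by their Ensembl identifiers from a deposited table of 55471 gene identifiers. The list holds 4 AMPA subunits, 7 NMDA subunits, 5 kainate subunits, the delta subunit Grid1, 7 metabotropic receptors, 3 vesicular glutamate transporters, and the auxiliary proteins Neto1, Neto2, Cnih2 and Cnih3. The list is one of function, and it does not cover every glutamate receptor gene of the mouse.

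The libraries were made from polyadenylated RNA of whole spinal cord from male C57BL/6J mice aged 3 months, sampled at rest. There were 3 wild type (WT) libraries and 2 from homozygous Lhx1os knockout mice (Lhx1os -/-, KO). The KO allele of Lhx1os, which encodes a long non-coding RNA, carries a synthetic polyadenylation signal followed by MAZ elements, placed in exon 2 by Cas9 and a guide RNA in fertilized C57BL/6J eggs. The series concerns motor neurons and locomotion after loss of this RNA, and no other allele or agent is given for either group. The labels do not say how many founder lines were used, or whether each library is a separate animal. If they are not, the p-values reflect library-to-library spread alone, and that spread may be technical.

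AMPA receptors are ion channels of 4 subunits that carry most of the fast excitatory current, and NMDA receptors are slower, calcium-permeable channels that need depolarization to open. Kainate receptors modulate release and excitability, while metabotropic receptors act through G proteins on both sides of the synapse. Most excitatory interneurons of the cord fill their vesicles through VGLUT2, the product of Slc17a6. Glia express some of these genes too, so a level measured in whole cord is a sum over cell types. In such bulk samples, fewer cells of a type and less RNA per cell cannot be told apart.

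The calcium permeability of AMPA receptors rests on the Q/R site in the pore loop. The genome encodes glutamine there in every AMPA subunit, and in neurons the enzyme ADAR2, product of Adarb1, edits the Gria2 transcript at that codon by A-to-I deamination, so that receptors containing the Gria2 product pass little calcium. The coding stretch around the site is shown for the 4 AMPA subunits, and for the kainate subunits Grik1 and Grik2, which are edited at the matching codon in part. Each is the unedited GENCODE M21 transcript on GRCm38, 45 bases long and read 5′ to 3′, with the Q/R codon in capitals.
Gria1: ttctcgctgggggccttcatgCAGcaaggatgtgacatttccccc
Gria2: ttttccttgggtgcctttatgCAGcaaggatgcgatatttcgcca
Gria3: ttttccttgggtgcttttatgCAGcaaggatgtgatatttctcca
Gria4: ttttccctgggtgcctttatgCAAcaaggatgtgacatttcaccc
Grik1: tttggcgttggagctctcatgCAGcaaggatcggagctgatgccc
Grik2: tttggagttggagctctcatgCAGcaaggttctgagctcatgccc
The Gria2 and Gria3 stretches share 42 of 45 bases, Grik1 and Grik2 share 41, and Gria2 and Grik2 share 27. In Gria2 the codon lies in exon 11 of 16 on the minus strand, at chr3:80706911-80706913, and in Gria4 in exon 12 of 17 at chr9:4464137-4464139. The deposited counts are per gene and do not tell edited from unedited transcripts, so editing itself was not measured, and the levels of the subunits and of the editing enzymes are what follows.

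The targeted gene was checked first. In WT its counts were 56, 66 and 51, and KO replicates 1 and 2 held 13 and 11. The fitted difference was −2.13 on the log2 scale, with an SE of 0.28 and an adjusted p of 0.0589 in edgeR's quasi-likelihood test. All KO values lay below all WT values, although the adjusted p missed 0.05. Total counts per library were between 15973063 and 19437533, and the listed genes together held 33359 to 43324 of them. Neuronal markers were present, though they do not tell spinal cord from other nervous tissue. Summed over 10 neuronal genes such as Rbfox3 and Snap25, the level was 9323 to 10449 counts per 1000000 counts (CPM) in WT and 10470 to 10772 CPM in KO. The groups thus did not overlap for this neuronal sum, if narrowly, where 24.9% of all genes tested had levels without overlap. A neuronal score, the mean log2 CPM of these genes relative to WT, was 0.081 and 0.078 in KO and 0.016, 0.035 and −0.050 in WT. A fit with this score as a covariate turned the sign for 10 of the listed genes, Grin1 (−0.04) and Grik3 (−0.10) among them. The score itself parted the genotypes, so the fit cannot well separate neuron content from genotype. In it the SE of Grin1 rose from 0.07 to 0.10. What the turned signs reflect was not tested. WT replicate 2 stood apart in its sensory ganglion markers, whose part in the levels of the glutamate genes was not tested. It held 306 counts of Scn10a and 167 of Scn11a, sodium channels of sensory ganglion neurons, where the other libraries held 1 or 2 of each, and its 8 sensory ganglion markers summed to 46.8 CPM. Results are therefore given with and without WT replicate 2 where that changes them.

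None of the glutamate genes passed the test between the genotypes. Of the 31 genes, 30 had enough counts to be tested, 0 had an adjusted p under 0.05, and the adjusted p-values ran from 0.621 to 0.999 (edgeR quasi-likelihood test with Benjamini-Hochberg adjustment over 16052 genes, of which 0.0187% were called). DESeq2 called 0 of the 30, against 0.265% of the genes it adjusted. The untested gene was Grm6, the receptor of retinal ON bipolar cells, with 0 counts in all 5 libraries. A count of 0 allows up to 3 counts, or 0.154 to 0.188 CPM per library, and covers counting error only. At an unadjusted p under 0.05 there were 2 genes in both tools, Neto2 and Gria2, and both had negative log2 fold changes. That is 6.67% of the tested list, against 7.57% of all genes tested in edgeR and 4.22% in DESeq2. By direction, 4.07% of all genes were lower and 3.49% higher at that p in edgeR. Log2 fold changes were above 0 for 16 of the 30 genes and below 0 for 14 (53.3% above 0, against 51.3% of all genes tested), with a median of 0.03 against 0.00 over all genes tested.

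**Figure D1:**
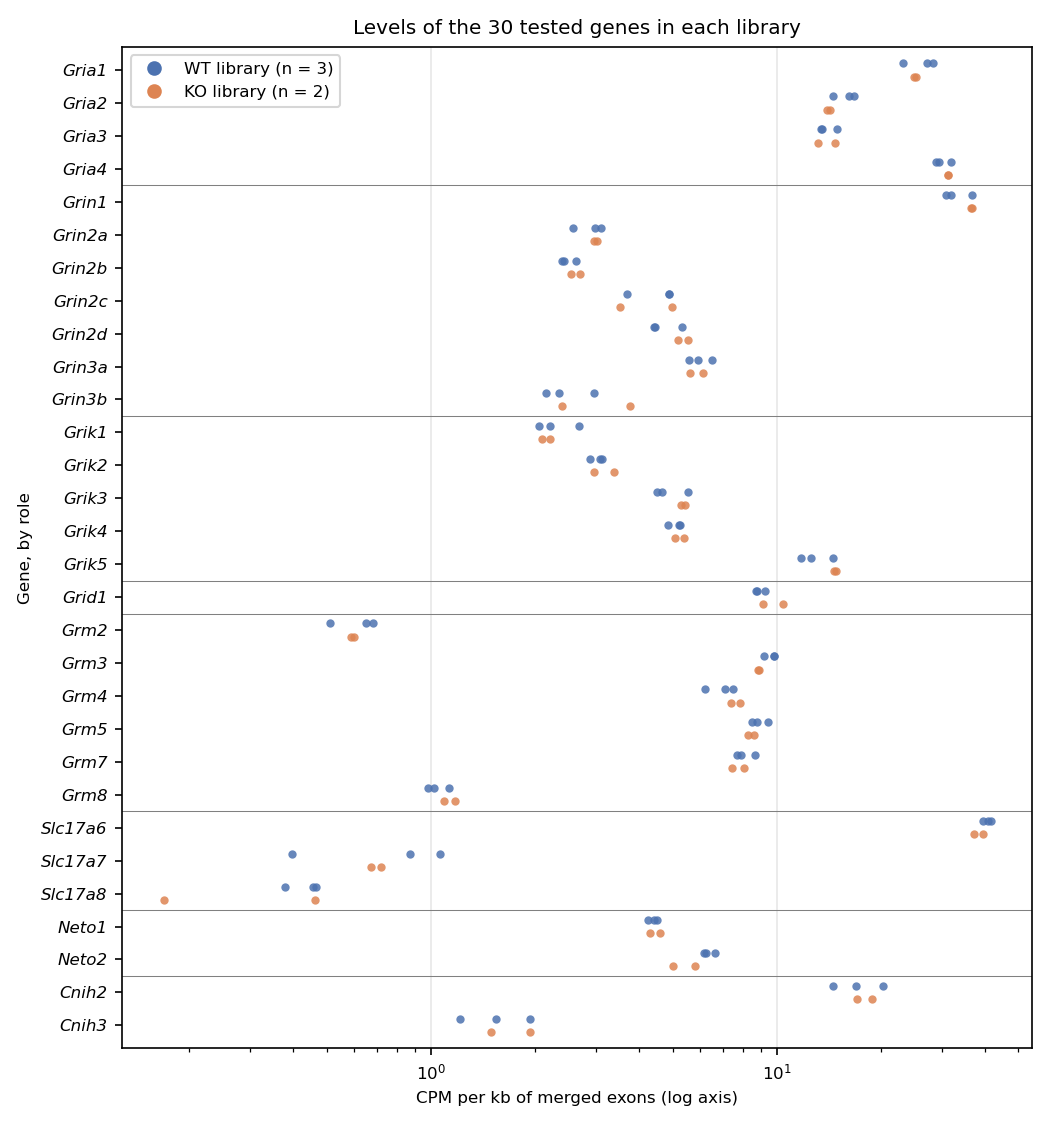
Level of each of the 30 tested genes in each library, in CPM per kilobase of merged exons on a log axis; blue points are the 3 WT and orange points the 2 KO libraries, and grey lines part the roles. Slc17a6, Grin1, Gria4 and Gria1 lie at the top, Slc17a7, Slc17a8 and Grm2 at the bottom, and the genotypes sit close together within each gene.

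The data bound how large a difference could have gone unseen. For 25 of the 30 genes the 95% interval of the log2 fold change lay within 0.5 of 0 on both sides, which is 41.4% higher or 29.3% lower, and for 12 of them within 0.25. The widest intervals belonged to the scarce transporters Slc17a7 (−0.92 to 0.60, from a mean of 68.4 counts) and Slc17a8 (−1.31 to 0.40, from 31.2 counts), to Grin3b (−0.15 to 0.77, from 151.6 counts), and to Grm2 and Cnih3. For the 20 genes with at least 500 counts on average, no standard error exceeded 0.10 on the log2 scale.

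**Figure D2:**
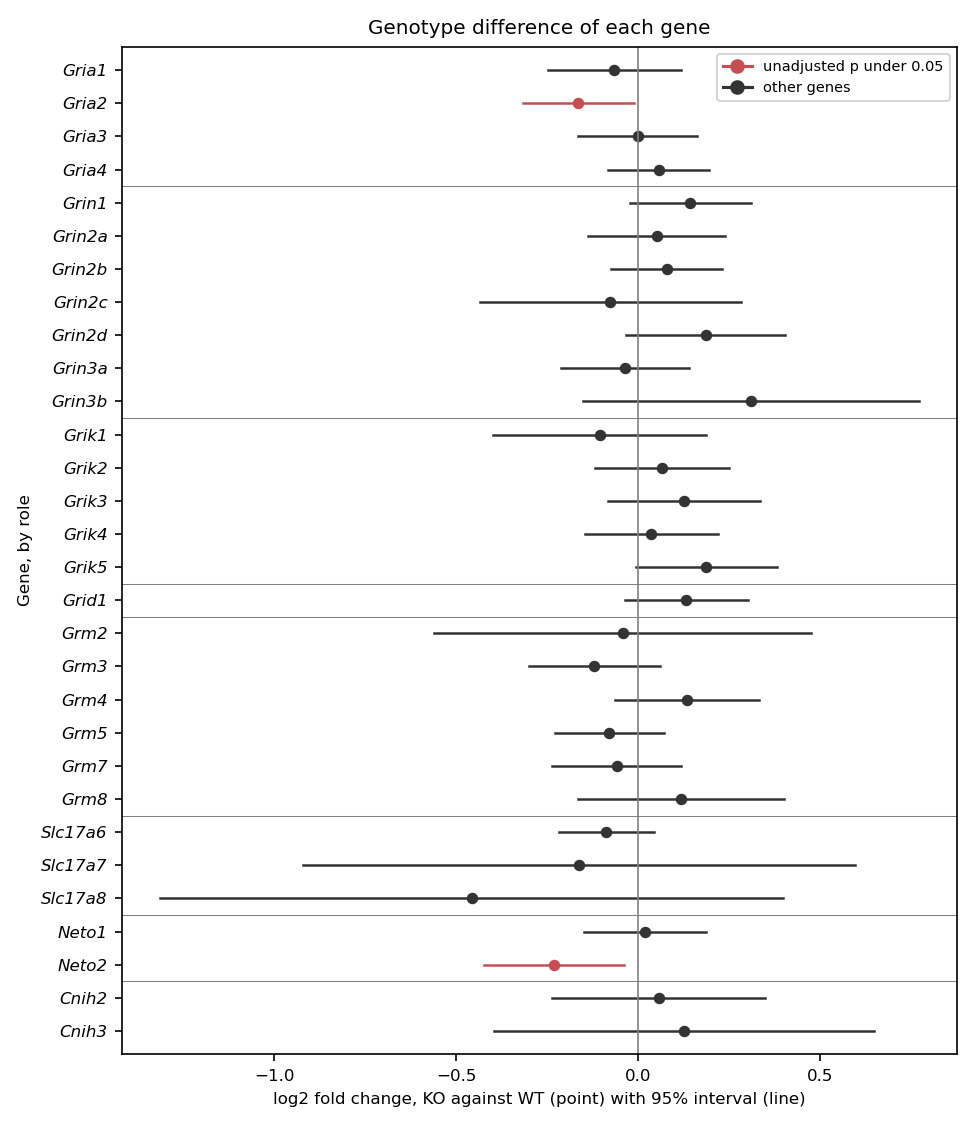
Log2 fold change of each tested gene, KO against WT (points), with its 95% interval from edgeR's quasi-likelihood fit (lines). Only the intervals of Gria2 and Neto2, in red, leave out 0, both at an unadjusted p that did not survive adjustment.

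AMPA receptor subunits form the pore of the fast synaptic channel. Per length, Gria4 was the most abundant in WT at 30.1 ± 1.63 CPM per kb (SD, n = 3), followed by Gria1 at 26.2 ± 2.70, Gria2 at 15.8 ± 1.11 and Gria3 at 14.0 ± 0.875. Gria4 and Gria1 differed by less than their summed SD, as did Gria2 and Gria3, and with the longest transcript as the length in place of merged exons Gria3 (26.5) stood above Gria2 (23.7). The level of Gria2, the subunit that carries the edited Q/R site, was 226, 259 and 251 CPM in WT and 221 and 217 CPM in KO. Both KO libraries lay below every WT library, though KO replicate 1 was close to WT replicate 1. The log2 fold change of Gria2 (chr3:80681450-80802835, minus strand) was −0.17 (SE 0.07; 95% interval −0.32 to −0.01; adjusted p = 0.646 in edgeR), 10.8% lower in KO. Without WT replicate 2 it was −0.12 (adjusted p = 0.572).

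The other AMPA subunits had overlapping groups. Gria1, which supports synaptic strengthening in many neurons, was at 140.1, 171 and 164 CPM in WT and 151 and 152 in KO. WT replicate 1 was the lowest of the 5 and WT replicate 2 the highest. Gria3 stood at 138 ± 8.63 CPM in WT (SD, n = 3) and 138 ± 10.7 in KO (SD, n = 2). Gria4, which gives channels of rapid kinetics, stood at 189.8 ± 10.2 and 197 ± 0.501 CPM. Their log2 fold changes were −0.07, −0.00 and 0.06, each with an SE of 0.06 to 0.08. As a share of all AMPA subunit counts per kb, Gria2 made up 17.2%, 19.1% and 18.7% in WT and 16.7% in each KO library, a difference of −1.64 percentage points. The KO libraries were the lowest for this share, and the exact permutation p (two-sided) was 0.2. With 3 libraries against 2 the smallest p such a test can give is 0.1, so no share could pass 0.05. Over the 26 shares tested in the 5 families the smallest adjusted p was 0.65. Among those 26, the groups did not overlap for Gria2, Grin3a, Grik1, Grik5, Grm3, Grm4 and Grm8. Groups without overlap were common in these data, at 24.9% of all genes tested by level. The summed AMPA level was 86.1 ± 1.32 CPM per kb in WT and 84.4 ± 1.15 in KO, with overlapping groups.

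**Figure D3:**
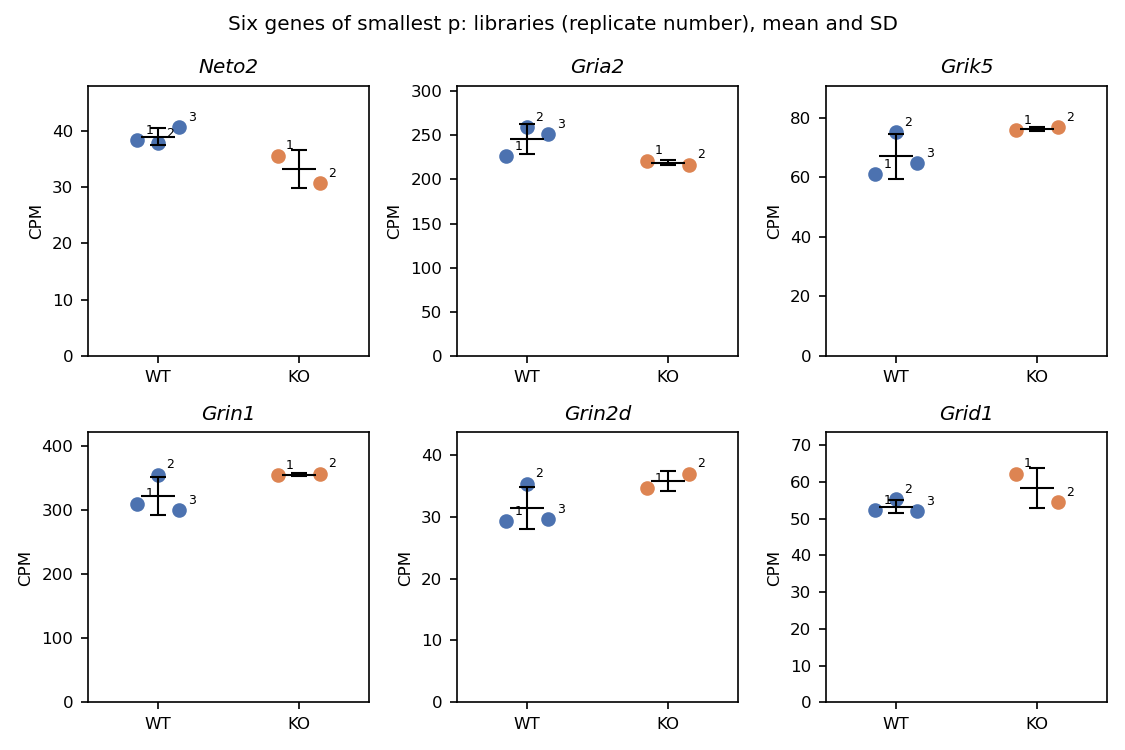
Level (CPM) in each library for the 6 genes of smallest p, with the replicate number beside each point and the group mean and SD in black. Neto2 and Gria2 are lower in both KO libraries, and in Grik5, Grin1 and Grin2d the KO libraries lie near WT replicate 2 and above WT replicates 1 and 3.

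The cornichon proteins bind AMPA receptors and slow their closing. Cnih2 was abundant per length, at 17.3 ± 2.90 CPM per kb in WT and 18.0 ± 1.27 in KO. Cnih3 was 1.56 ± 0.360 and 1.71 ± 0.309 CPM per kb, and neither log2 fold change (0.06, SE 0.13, and 0.13, SE 0.24) exceeded its error. Without WT replicate 2 they were 0.19 (SE 0.11) and 0.31 (SE 0.25), with adjusted p-values of 0.602 and 0.702 (edgeR). Other auxiliary genes of AMPA receptors, among them TARP genes such as Cacng2, were followed as a list of 15. The count called was 0 in either direction, with 10 above 0, 5 below and a median log2 fold change of 0.04. Cacng7 (60.2 CPM per kb in WT) and Olfm1 (45.7) were its most abundant members per length, and Cpt1c (0.15, SE 0.08) and Cacng3 (0.15, SE 0.14) had its smallest p-values without passing. The editing enzymes Adar and Adarb1 had log2 fold changes of 0.16 (SE 0.08) and 0.13 (SE 0.08), and 0 of the 3 editing genes were called. Adarb1 was 263 ± 21.1 CPM in WT and 288 ± 16.3 in KO.

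NMDA receptors contain the obligatory subunit Grin1, joined by Grin2 subunits that bind glutamate or Grin3 subunits that bind glycine. Grin1 had the largest count of all the listed genes, with a mean of 5698, and stood at 33.1 ± 3.05 CPM per kb in WT. By the longest transcript it was 75.2 CPM per kb, above Slc17a6 at 53.1, whereas over merged exons Slc17a6 (40.7) was the higher. The level of Grin1 was 309.6, 355 and 299.6 CPM in WT and 354 and 356 CPM in KO. WT replicate 2 matched the KO libraries, and the other WT libraries lay below them. Its log2 fold change was 0.14 (SE 0.07; 95% interval −0.02 to 0.31; adjusted p = 0.708, edgeR). Grin2d, the subunit of slowest decay, gave the same layout with 29.3, 35.3 and 29.6 CPM in WT and 34.6 and 36.9 in KO (0.18, SE 0.10). Without WT replicate 2 the log2 fold changes were 0.22 for Grin1 and 0.28 for Grin2d, with adjusted p-values of 0.323 and 0.351 (edgeR).

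Among the other NMDA subunits the order per length in WT was Grin3a (6.01 ± 0.469 CPM per kb), Grin2d (4.72 ± 0.512), Grin2c (4.49 ± 0.688), Grin2a (2.89 ± 0.274), and Grin2b and Grin3b (2.48 each). Grin2d and Grin2c differed by less than their summed SD, as did Grin2b and Grin3b. Log2 fold changes were 0.05 for Grin2a, 0.08 for Grin2b, −0.08 for Grin2c and −0.04 for Grin3a, and each interval included 0. Grin3b, a subunit known from motor neurons, had 9.76, 7.71 and 7.08 CPM in WT and 12.4 and 7.88 CPM in KO. Only KO replicate 1 stood above the WT range, and without it the log2 fold change moved from 0.31 (SE 0.21) to −0.06. Grin3b shares 32.1% of its exon bases with Tmem259 on the opposite strand, and since the strand setting of the counting is not given its counts are uncertain. Grin1 made up 58.9 ± 1.06% of the NMDA counts per kb in WT and 60.3 ± 2.30% in KO. Grin3a made up 10.1%, 10.6% and 11.4% in WT and 9.84% and 9.43% in KO, so its groups did not overlap as a share although they did as a level.

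Kainate receptors combine the subunits Grik1 to Grik3, which form channels alone, with Grik4 and Grik5, which bind kainate tightly and need a partner. Grik5 was the most abundant per length, at 13.0 ± 1.43 CPM per kb in WT, above Grik4 (5.11), Grik3 (4.90), Grik2 (3.03) and Grik1 (2.32). Grik4 and Grik3 differed by less than their summed SD, and by the longest transcript Grik2 and Grik1 were level (4.26 each). The level of Grik5 was 60.9, 75.2 and 64.8 CPM in WT and 75.8 and 76.8 CPM in KO. Both KO libraries lay above every WT library, by less than 1 CPM in the case of KO replicate 1 and WT replicate 2. The log2 fold change of Grik5 (chr7:25009849-25072346, minus strand) was 0.19 (SE 0.09; 95% interval −0.01 to 0.38; adjusted p = 0.671, edgeR). It was 0.28 without WT replicate 2 (adjusted p = 0.291, edgeR), and Grik3 went likewise from 0.12 to 0.23 (adjusted p = 0.381, edgeR). With the neuronal score as a covariate the values were smaller or of the other sign, at 0.058 for Grik5, 0.0083 for Grin2d and −0.10 for Grik3. That score was higher in both KO libraries than in every WT library, so this fit cannot well separate it from genotype. In all, 5 of the listed genes had an unadjusted p under 0.05 without WT replicate 2 (Grin1, Grin2d, Grik3, Grik5 and Neto2) and 0 passed adjustment, where 10.2% of all genes had such a p.

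Within the kainate family, Grik5 made up 45.7 ± 1.33% of counts per kb in WT and 48.1 ± 1.03% in KO, a difference of 2.42 percentage points. Grik1, a subunit of sensory neurons as well as of the cord, made up 7.70%, 8.60% and 8.16% in WT and 7.17% and 6.88% in KO. The KO libraries were lowest for this share, with an exact permutation p of 0.1, the smallest possible. In level, Grik1 was highest in WT replicate 2, the library with the ganglion markers, at 18.0 CPM against 13.8 to 14.9 CPM in the other 4, and its log2 fold change went from −0.11 (SE 0.13) to 0.01 without it. Grik2 (0.07, SE 0.08) and Grik4 (0.04, SE 0.08) had log2 fold changes below their errors. The delta subunit Grid1, which joins presynaptic neurexins through cerebellin proteins, was 52.3, 55.3 and 52.0 CPM in WT and 62.2 and 54.4 in KO. KO replicate 1 was the highest and KO replicate 2 lay inside the WT range (0.13, SE 0.08).

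Neto1 and Neto2 are single-pass membrane proteins that bind kainate receptors and alter their gating. Neto2 had the smallest p of the whole list. Its level was 38.4, 37.9 and 40.6 CPM in WT and 35.6 and 30.8 CPM in KO. The WT libraries lay close together and both KO libraries below them, KO replicate 2 the further. The log2 fold change of Neto2 (chr8:85636588-85700924, minus strand) was −0.23 (SE 0.09; 95% interval −0.42 to −0.04; adjusted p = 0.621, edgeR), 14.8% lower in KO. Without KO replicate 2 it was −0.13 and without KO replicate 1 −0.34, and with the neuronal score as a covariate −0.14. Neto1 had overlapping groups, at 36.7 ± 1.13 CPM in WT and 37.2 ± 1.69 in KO (0.02, SE 0.08).

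Markers of oligodendrocyte precursors, glial cells that express AMPA receptor subunits, were lower in the same libraries as Gria2 and Neto2. Of 10 such markers 8 had negative log2 fold changes and 5 an unadjusted p under 0.05, all lower, against 7.57% of all genes at that p and 4.07% in that direction, but 0 passed adjustment. Their summed level was 695 to 700.2 CPM in WT and 617 to 634 CPM in KO. None of the 10 was at 0, and the part of these cells in the values of Gria2 and Neto2 was not tested. Other marker lists leaned one way too, with 0 genes called. Motor neuron markers had 8 of 10 log2 fold changes above 0 (median 0.18), against 51.3% of all genes tested, and 1 had an unadjusted p under 0.05 (edgeR). Their summed levels were 493 to 662 CPM in WT and 540 to 718 CPM in KO. The 10 neuronal markers had 8 above 0 (median 0.10). Meningeal fibroblast markers had 10 of 10 log2 fold changes below 0 (median −0.45), at summed levels of 229 to 543 CPM in WT and 278 to 311 CPM in KO. Schwann cell markers had 6 of 7 below 0 (median −0.38), at 129.7 to 318 CPM and 167 to 272 CPM. Skeletal muscle markers had 7 of 7 tested genes above 0 (median 1.11), at 3.63 to 6.96 CPM and 6.56 to 18.7 CPM, and caudal Hox genes, which mark the level of the cord, 5 of 5 tested (median 0.55), at 35.8 to 85.1 CPM and 39.7 to 124 CPM. The summed levels of the motor neuron, fibroblast, Schwann cell, muscle and Hox lists overlapped between the genotypes, and no marker in them was at 0 in all libraries. The part of these lists in the values of the glutamate genes was not tested, other than by fits with the neuronal or the Hox score as a covariate. In the Hox fit Gria2 was −0.16 and Neto2 −0.22.

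**Figure D4:**
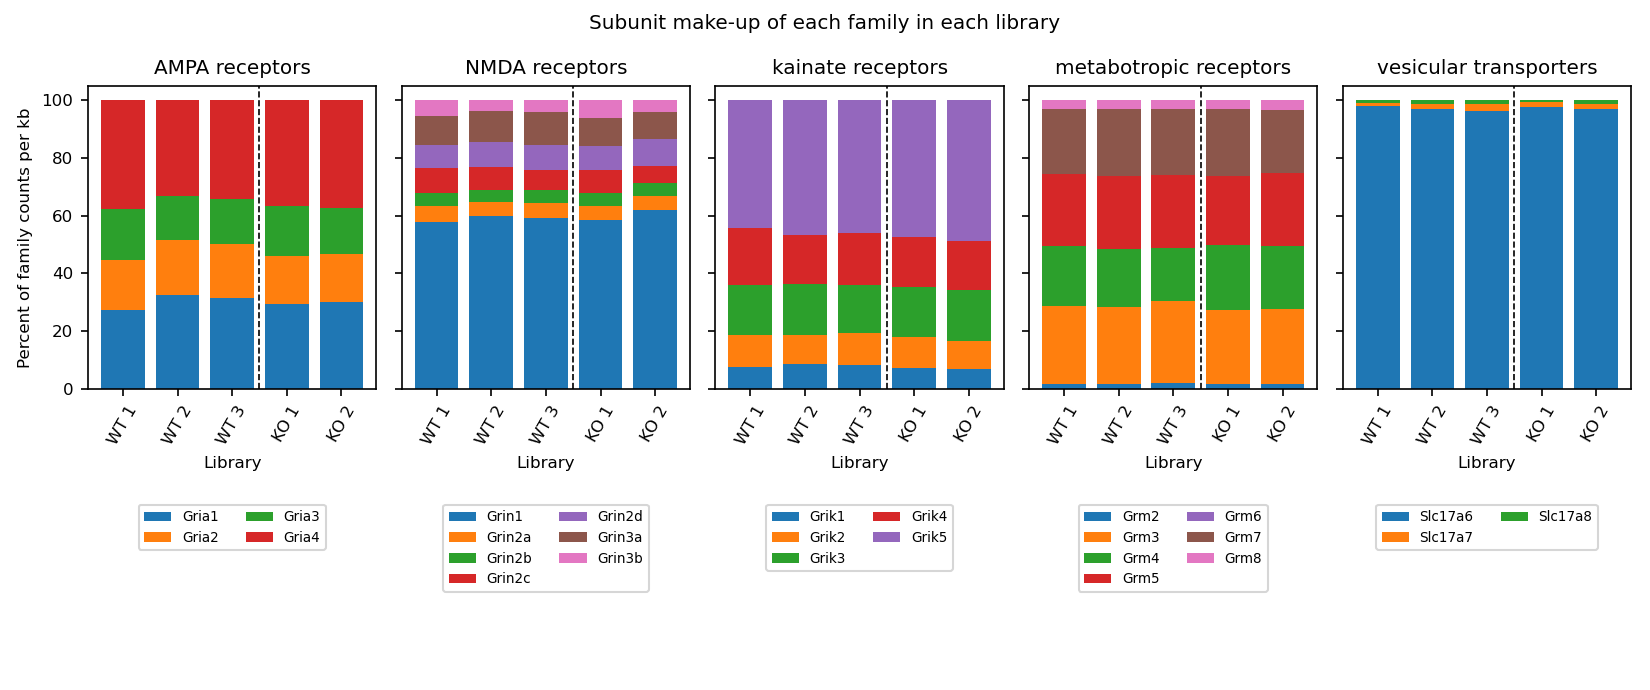
Share of each subunit or transporter in its family's counts per kilobase (percent, stacked to 100) in the 5 libraries, with a dashed line between WT and KO. Grin1 and Slc17a6 take most of their families, and the layout is nearly the same in every library.

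Metabotropic receptors fall into groups by their G protein. Grm5, which couples to calcium release, is expressed by neurons and glia. Per length Grm3 (9.63 ± 0.377 CPM per kb in WT), Grm5 (8.90 ± 0.497), Grm7 (8.05 ± 0.508) and Grm4 (6.92 ± 0.644) stood close together, with Grm8 (1.04) and Grm2 (0.612) well below. Grm3, a receptor of astrocytes and neurons that lowers cyclic AMP, was at 28.0, 30.0 and 30.0 CPM in WT and 27.0 and 26.9 in KO. Both KO values lay below all WT values, by a margin of about 1 CPM, and the log2 fold change was −0.12 (SE 0.08; adjusted p = 0.757, edgeR). Grm4, a presynaptic receptor that dampens release, had 42.3, 44.6 and 37.1 CPM in WT and 46.7 and 44.1 in KO. Its share of the family was 19.7 ± 1.46% in WT and 22.1 ± 0.634% in KO, with no overlap, while the share of Grm3 was 27.4 ± 1.12% and 25.8 ± 0.260%, also without overlap. Grm8, a presynaptic receptor like Grm4, made up 2.97 ± 0.0758% in WT and 3.30 ± 0.216% in KO, again without overlap, at an exact permutation p of 0.1, the smallest possible. By level, 24.9% of all genes tested were without overlap. Log2 fold changes were 0.13 for Grm4, −0.08 for Grm5, −0.06 for Grm7, 0.12 for Grm8 and −0.04 for Grm2. The summed level of the 7 receptors was 35.2 ± 1.75 CPM per kb in WT and 34.3 ± 0.441 in KO.

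Slc17a6 was the most abundant of the listed genes per kb of merged exons and made up 97.1 ± 0.941% of the vesicular transporter counts per kb in WT and 97.4 ± 0.335% in KO. Its level was 221, 224 and 213 CPM in WT and 200.5 and 213 CPM in KO. KO replicate 1 was clearly the lowest, while KO replicate 2 and WT replicate 3 were less than 1 CPM apart. The log2 fold change was −0.09 (SE 0.06; 95% interval −0.22 to 0.04; adjusted p = 0.755, edgeR). Of 10 excitatory interneuron markers, 9 had log2 fold changes below 0 (median −0.10), against 7819 of all 16052 genes tested, and 0 had an unadjusted p under 0.05 (edgeR). Their summed levels overlapped, at 195 to 239 CPM in WT and 204 to 216 CPM in KO. The part of these cells in the value of Slc17a6 was not tested. The other transporters were scarce. Slc17a7, the transporter of sensory and corticospinal endings, had 36, 92 and 93 counts in WT and 63 and 58 in KO. WT replicate 1 was low and WT replicates 2 and 3 high, so its variation within WT was larger than its genotype difference (−0.16, SE 0.34). Slc17a8 had 30, 43 and 35 counts in WT and 13 and 35 in KO. KO replicate 1 alone was low, and the log2 fold change of −0.46 (SE 0.38) became 0.09 without it.

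**Figure D5:**
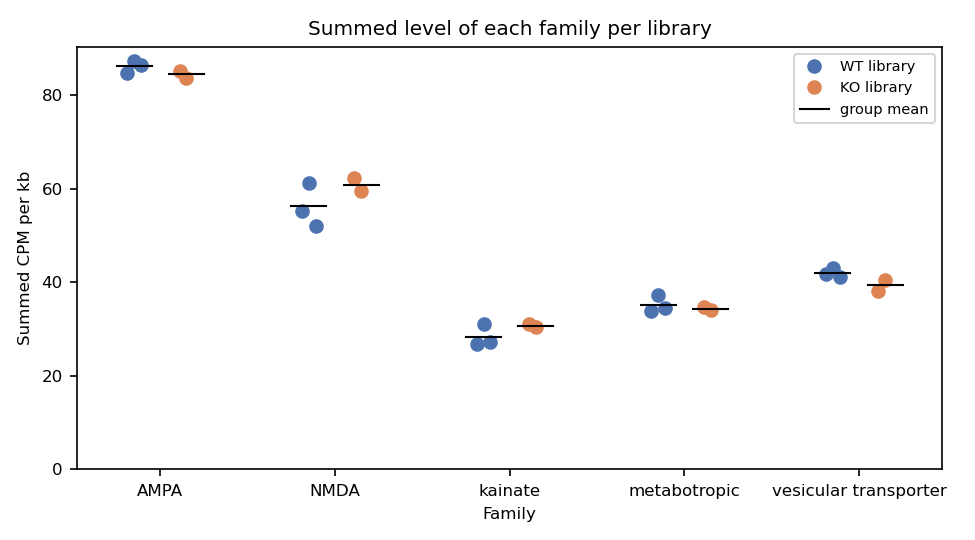
Summed level of each family in each library, in CPM per kilobase of merged exons, with group means as black lines. The KO and WT points overlap for every family but the vesicular transporters.

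The families were also compared by their sums. The NMDA sum was 56.2 ± 4.66 CPM per kb in WT and 60.8 ± 1.98 in KO, and the kainate sum 28.3 ± 2.44 and 30.7 ± 0.367, with WT replicate 2 at the KO level in both. For vesicular transporters the sum was 41.9 ± 0.940 and 39.3 ± 1.78 CPM per kb, the only family without overlap, at an exact permutation p of 0.1 and an adjusted p of 0.5 over the 5 families. Across the list, the groups did not overlap for 5 of 30 genes, 16.7%, against 24.9% of all genes tested. Gria2, Grm3, Slc17a6 and Neto2 were the lower genes in KO and Grik5 the higher. Over all genes tested 1920 were lower and 2075 higher without overlap.

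Other genes of glutamate transmission were followed in 3 further lists. In receptor anchoring and trafficking, 0 of 26 genes were called, with 17 above 0 and 9 below. Homer2, a scaffold that ties metabotropic receptors to calcium stores, had the smallest p of that list (−0.22, SE 0.09; adjusted p = 0.640, edgeR), followed by Shank1 (0.22, SE 0.11). Its most abundant genes per length, Sqstm1 and Nsf, were at 0.09 (SE 0.06) and 0.04 (SE 0.06). In glutamate uptake 0 of 7 were called, and the main astrocyte transporter Slc1a2 stood at 2067 ± 130.4 CPM in WT and 2146 ± 55.1 in KO (0.05, SE 0.07). Slc1a4, which carries neutral amino acids, was at 0.16 (SE 0.06; adjusted p = 0.626) and Slc1a3, an astrocyte glutamate transporter, at −0.14 (SE 0.07).

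In glutamate and glutamine metabolism 0 of 14 genes were called, and 2 had an unadjusted p under 0.05, which is 14.3% against 7.57% of all genes tested. Slc38a2, a glutamine transporter that cells also raise under amino acid shortage, had the smallest p, at 336 ± 32.5 CPM in WT and 248 ± 32.0 in KO (−0.44, SE 0.09; adjusted p = 0.270, edgeR). Glul, the glutamine synthetase of astrocytes and oligodendrocytes, was the most abundant per length of that list and stood at 1869 ± 31.8 CPM in WT and 1644 ± 113.8 in KO (−0.18, SE 0.06; adjusted p = 0.586). Both were lower in both KO libraries than in every WT library, where 24.9% of all genes tested had groups without overlap. Got1, a glutamate aminotransferase and the next in abundance, had a log2 fold change of 0.06 (SE 0.06).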

How the data were processed

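RNA was measured in 5 spinal cord libraries, grouped by the labelled genotype. The deposited values are raw counts per gene, which the authors made with cutadapt, Trimmomatic, STAR 2.5.2b and HTSeq on GRCm38, per the submitters' processing notes. The library kit was stranded, per the labels' protocols, while for the counting, annotation release and strand setting were not given in the sources used here. Symbols, coordinates, exon lengths and transcript sequences came from GENCODE M21 (GRCm38), and all 31 listed genes matched. After filterByExpr (minimum count 10, total 15), 16052 genes entered edgeR 4.0.16 under R 4.3.3 (TMM, quasi-likelihood F test, no covariate), with Benjamini-Hochberg adjustment at 0.05. CPM are TMM-scaled. Levels per kb divide by merged exon length. Family shares and sums were compared by exact permutation over libraries. DESeq2 1.42.0 and limma 3.58.1 were alternatives. The procedure was tested on simulated data. Within a group, counts differed by more than sampling noise (chi-square per degree of freedom 4.01 to 7.47). Members and lists were chosen with earlier results of these data known. Every listed gene is named, and from each pathway list the 2 of smallest p and the 2 most abundant per length.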

Additional observations from a re-analysis of the deposited data

How the results depend on the processing

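The count of listed genes called was 0 in all 14 settings, and 12 of the 30 tested genes kept the sign of their log2 fold change in each, Gria2 and Neto2 among them. A neuron score covariate gave −0.041 for Grin1, −0.17 for Grin2a, −0.020 for Grin2b, −0.10 for Grik3, −0.077 for Grik4, 0.12 for Grm2, −0.11 for Grm4, 0.39 for Slc17a7, −0.073 for Cnih2 and −0.017 for Cnih3, with 10 genes higher, a median of −0.058 and 0 genes at p under 0.05 (edgeR). A Hox score covariate gave 0.022 for Gria3 and 0.043 for Grin2c. With the replicate block the values were −0.024 for Grin2a, −0.0024 for Grik4, 0.042 for Grm2 and 0.18 for Slc17a7, and 1 gene had p under 0.05. The replicate numbers did not pair the libraries (correlations of 0.06 and 0.0020). Leaving out 1 library gave 0 to 5 genes at p under 0.05 and 13 to 19 higher. The ranges were −0.086 to 0.074 for Gria3, −0.028 to 0.10 for Grin2a, −0.35 to 0.15 for Grin2c, −0.10 to 0.025 for Grin3a, −0.058 to 0.60 for Grin3b, −0.19 to 0.014 for Grik1, −0.036 to 0.16 for Grik2, −0.010 to 0.075 for Grik4, −0.16 to 0.030 for Grm2, −0.47 to 0.11 for Slc17a7, −1.35 to 0.093 for Slc17a8, −0.032 to 0.062 for Neto1, −0.054 to 0.19 for Cnih2 and −0.072 to 0.31 for Cnih3. For genes that kept their sign whichever library was left out, they were −0.15 (without WT replicate 1) to −0.0073 (without WT replicate 2) for Gria1, −0.22 to −0.12 for Gria2, 0.026 to 0.10 for Gria4, 0.091 to 0.22 for Grin1, 0.030 to 0.12 for Grin2b, 0.14 to 0.28 for Grin2d, 0.063 to 0.23 for Grik3, 0.12 to 0.28 for Grik5, 0.030 (without KO replicate 1) to 0.22 (without KO replicate 2) for Grid1, −0.15 to −0.10 for Grm3, 0.058 to 0.19 for Grm4, −0.11 to −0.034 for Grm5, −0.12 to −0.0057 for Grm7, 0.060 to 0.18 for Grm8, −0.13 (without KO replicate 2) to −0.049 (without KO replicate 1) for Slc17a6 and −0.34 to −0.13 for Neto2. Of these genes, Grin1, Grin2b, Grik3 and Grm4 turned with the neuron score covariate, and the others kept their sign in every setting. The share difference ranged from −0.30 to 2.95 points for Grin1 and −1.53 to 4.4e-05 for Grm5, and the log2 ratio of the transporter sum from −0.14 to −0.048. Lhx1os passed the adjusted threshold with DESeq2 size factors (−2.14), no filter (−2.14), robust dispersion (−2.13), DESeq2 (−2.15) and the replicate block (−2.16), and ranged from −2.25 to −2.03 with 1 library left out, with an adjusted p (edgeR) of 0.0295 without WT replicate 1 up to 0.386 without KO replicate 1. Its adjusted p was 0.769 with the neuron score covariate (−2.23). The cause of these shifts was not tested. Counts of 31.2 and 68.4 on average limit what can be said of Slc17a8 and Slc17a7.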

Other observations

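The ratio of summed NMDA to summed AMPA subunit levels per kb, computed after the values were seen, was 0.653, 0.702 and 0.603 in WT and 0.730 and 0.710 in KO. Both KO ratios lay above all WT ratios, with WT replicate 2 less than 0.01 below KO replicate 2, and the exact permutation p (two-sided) was 0.2 where the smallest possible is 0.1. With the longest transcript as the length the ratios were 0.900, 0.994 and 0.851 in WT and 1.02 in each KO library. Of the 30 tested genes, 21 had their highest WT level in WT replicate 2, the library with sensory ganglion markers, against 34.7% of all genes tested. A link between those markers and these levels was not tested.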
